A study of Saccharomyces cerevisiae with 24 samples.

Results

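The genes described here encode the proteins of the cytosolic ribosome of budding yeast. They were chosen by name, as every feature with a standard RPL or RPS symbol together with the stalk genes RPP0, RPP1A, RPP1B, RPP2A and RPP2B, which gave 137 of the 7126 features in the table. Of these, 76 belong to the large subunit, 56 to the small subunit and 5 to the stalk, and all 137 had the mean of at least 1 FPKM needed to be tested. FPKM are fragments scaled to transcript length and to the mapped fragments of the library, so levels can be compared between genes per length. In all, 118 of the genes form 59 A/B pairs of copies and 19 are single. The coding sequences of the copies were 69.2 to 99.4% identical (median 93.2%), and in the 20 pairs over 95% the division of reads between copies is uncertain.

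A growing yeast cell spends much of its transcription on ribosomes. The genes for their proteins are switched on together through Rap1, Fhl1, Ifh1 and Sfp1 and are switched down together under stress. Most are present as A and B copies that differ little in protein and more in promoter, intron and untranslated parts. Many carry an intron, although introns are rare in other yeast genes, and the protein is known to restrain splicing of its own transcript for RPS14B, RPS9A and RPL22B.

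The study measured mRNA by RNA-seq in 4 strains before and after salt, with 24 libraries in 12 groups of 2. In Mut1 the Sln1 protein has the changes E1101K, E1110K and S1179D, and Ypd1 has M20D. Mut2 shares that Sln1, but its Ypd1 has M92K in addition to M20D. Mut3 has L1109K in Sln1 beside E1101K, E1110K and S1179D, together with I13D in Ypd1. WT has unaltered forms of both proteins. Sln1 is the osmosensing histidine kinase and Ypd1 the carrier that passes its phosphate on toward the Hog1 kinase cascade. The background of all 4 strains, WT included, is W303-1a. All carry sho1::HIS3, a qVenus reporter driven by the STL1 promoter at leu2, and marked cassettes in place of the native YPD1 and SLN1. Each strain was sampled at 0, 10 and 20 min in 0.4 M NaCl, in synthetic complete medium at mid-log phase.

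The libraries of a group are called library 0 and library 1, after the column names. Nothing in the labels says that they came from separate cultures, so every p below measures the spread between these libraries. Read depth is unknown, since the files hold FPKM only. SHO1 was listed at 0 in all 24 libraries, and SLN1 stood at 12.4 to 25 FPKM. The 6 markers of a cells summed to 8718 to 12647 FPKM in Mut1 and Mut2 at 0 min, 14428 to 31511 in Mut3 and 21724 to 32883 in WT. At 20 min they summed to 2794 to 4054 FPKM in Mut1 and Mut2, 5601 to 8886 in Mut3 and 6438 to 8178 in WT. At each time, 10 min included, the libraries of Mut1 and Mut2 were below those of Mut3 and WT. The 5 meiotic markers summed to 22.4 to 24.6 FPKM in Mut1 and Mut2 at 10 min, 39.2 to 42 in Mut3 and 50.6 to 56.3 in WT. The part of these differences between strains in the results was not tested. The 2 markers of alpha cells in the table summed to 10.2 to 21.6 FPKM, with STE3 at 0 to 0.596. In the members' own levels, library 0 was above library 1 in each of the 12 groups, by a median of 0.148 to 0.616 on the log2 scale. Same-numbered libraries deviated together, so a second limma fit took this number as a replicate block, and its counts stand beside the main ones. In bulk RNA, fewer ribosomal protein transcripts in each cell and a change in how many cells hold them cannot be told apart.

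Ribosomal protein transcripts took up a large and shrinking part of the mRNA. Their summed share of all FPKM was 32.3 to 42.3% (median 35.8%) in the 8 libraries at 0 min, 24.6 to 36.4% (median 30.45%) at 10 min and 17.8 to 26.9% (median 22.3%) at 20 min. The ranges at 20 and 0 min do not overlap. Averaged over all libraries, the highest levels were 26342 FPKM for RPL29, 24079 for RPS28A and 22332 for RPS27B. The lowest were 76.8 FPKM for RPL22A, 163 for RPL15B and 169 for RPL7B.

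After 20 min in salt 129 of the 137 genes had a log2 change below 0 in all 4 strains, though fewer were called. In each strain the 0 and 20 min libraries belong to different sets, described further on, so time and set cannot be told apart. With limma and Benjamini-Hochberg adjustment over the 6359 tested features, 95 of the 137 genes were lower and 5 higher in Mut1 (adjusted p under 0.05), 100 lower and 4 higher in Mut2, 113 lower and 6 higher in Mut3, and 108 lower and 6 higher in WT. Over all tested features the share called lower was 19.5% in Mut1, 18.2% in Mut2, 22.4% in Mut3 and 22.5% in WT, and the share called higher 20.2, 21.5, 25.3 and 24.5%. With the replicate block 130, 128, 126 and 126 genes were lower in Mut1, Mut2, Mut3 and WT, against 29.6, 29.1, 31 and 31.9% of all features. The genes called higher are nearly all among RPL22A, RPL43A, RPL36B, RPL39 and RPL33A, which differ between sets of libraries as described further on: without these 5, 0 were higher in Mut1 and Mut2, and 1, RPL15B, in each of Mut3 and WT. The count in either direction, 100 in Mut1 and 104 in Mut2, was 58 in Mut1 without library 0 at 0 min, 63 without library 1 at 20 min, and 62 in Mut2 without library 1 at 20 min. The median log2 change of the 137 genes was -1.02 in Mut1, -1.11 in Mut2, -1.37 in Mut3 and -1.22 in WT, against medians over all tested features of 0.05, 0.08, 0.10 and 0.07 in that order of strains. In all 4 strains 89 genes were called lower, against 14.8% of all tested features. With the block it was 126 genes, against 22% of all features, and the 7 lower in no strain were RPL15B, RPL22A, RPL28, RPL33A, RPL36B, RPL39 and RPL43A. Of those, RPL22A, RPL33A, RPL36B, RPL39 and RPL43A are the library-set genes.

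**Figure D1:**
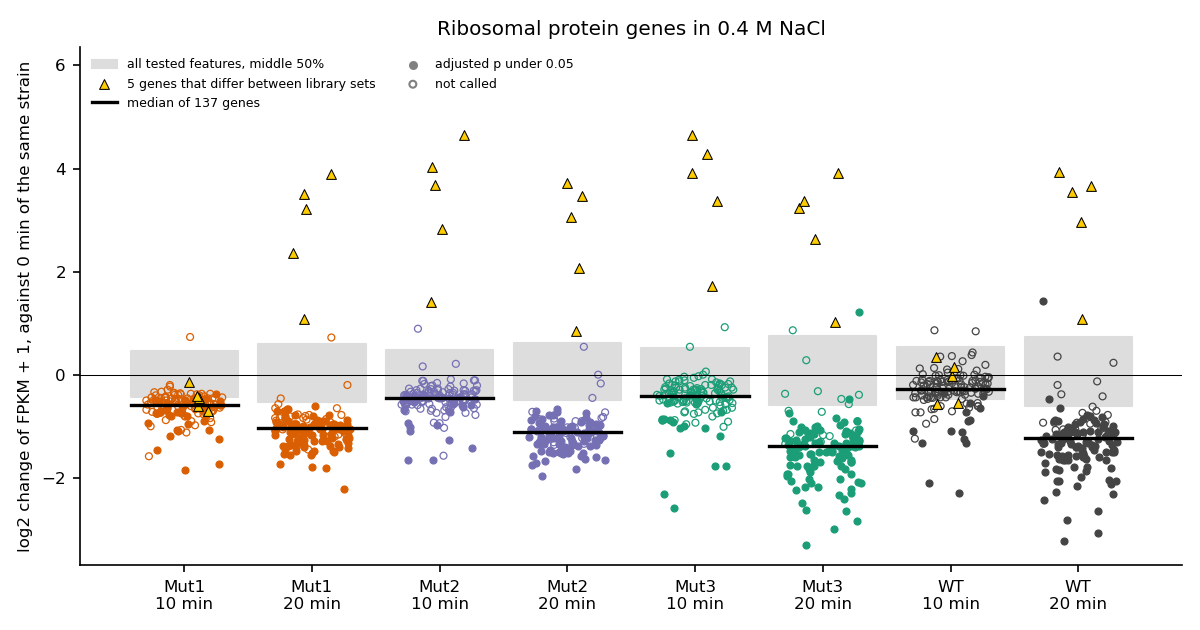
Log2 change of each of the 137 ribosomal protein genes at 10 and 20 min against 0 min of the same strain, with a point per gene. Filled circles were called at an adjusted p under 0.05 and open circles were not, triangles mark the 5 genes that differ between sets of libraries whether called or not, black lines are medians and grey bands hold the middle 50% of all tested features. The medians lie at -0.57, -0.44, -0.40 and -0.26 for Mut1, Mut2, Mut3 and WT at 10 min and between -1.02 and -1.37 at 20 min.

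The decline was under way at 10 min, when it was smaller. The call was made for 36 genes lower and 0 higher in Mut1, 27 lower and 5 higher in Mut2, 23 lower and 5 higher in Mut3, and 15 lower and 0 higher in WT. Over all tested features 15.5, 15.4, 16.7 and 17.6% were called lower in these strains, and 15.8, 16.3, 17.5 and 17.6% higher. The members' share called lower was below this background in WT and near it in Mut2 and Mut3. With the replicate block the counts lower were 122 in Mut1, 105 in Mut2, 93 in Mut3 and 66 in WT, against shares over all tested features of 26.7, 27.4, 28.2 and 29.8%. The median change was -0.57 in Mut1, -0.44 in Mut2, -0.40 in Mut3 and -0.26 in WT. Leaving out 1 library left 15 to 35 calls in either direction in Mut1, 16 to 44 in Mut2, 15 to 26 in Mut3 and 10 to 12 in WT. The counts fell most without library 1 at 10 min in Mut1, Mut2 and Mut3, to 15, 16 and 15, without library 0 at 0 min in Mut1 and Mut3, to 16 in each, and without library 1 at 0 min in Mut2, to 21. All 5 genes called higher in Mut2 and in Mut3 are library-set genes, and without them 0 were higher in any strain. In Mut2 the median change at 10 min was -0.22 between the libraries numbered 0 and -0.64 between those numbered 1.

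The further step between 10 and 20 min was compared in Mut2 and Mut3. In Mut2, 27 genes were lower and 0 higher at 20 than at 10 min (median -0.68, with 2.17% of all tested features lower and 2.14% higher), and with the block 124 were lower against 13.7% of all features. In Mut3, 65 were lower and 0 higher (median -0.97, with 8% of all features lower and 6.18% higher), and with the block 127 against 18.1%. The Mut2 count was 0 without library 0 at 10 min and 10 without library 1 at 20 min, and the Mut3 count 33 and 35 without these libraries of Mut3. The members with the largest called falls in Mut2 were RPS28A at -1.12 ± 0.26 (SE, adjusted p = 0.0248 in limma), RPL37A at -1.07, RPS14B at -0.99 and RPS27B at -0.93. Each of these 4 calls was lost without library 0 at 10 min (adjusted p = 0.147, 0.164, 0.0805 and 0.257), and all but that of RPS14B without some other single libraries (0.0534 to 0.2). In Mut3 they were RPL16A at -1.61 ± 0.29 (adjusted p = 0.00203 in limma), RPS14B at -1.52, RPL27B at -1.48 and RPL31B at -1.48. Without library 0 at 10 min or library 1 at 20 min RPL27B (0.245 and 0.196) and RPL31B (0.0609 and 0.0533) were not called, and RPL27B also not without library 0 at 20 min (0.0558).

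Genes of both subunits fell. At 20 min, apart from the 5 genes set apart, 55 of 71 large subunit genes were lower in Mut1, 55 in Mut2, 64 in Mut3 and 61 in WT. Of the 56 small subunit genes, 37 were lower in Mut1, 42 in Mut2, 46 in Mut3 and 44 in WT. The medians of large and small subunit genes were -1.05 and -1.01 in Mut1, -1.12 and -1.11 in Mut2, -1.45 and -1.34 in Mut3, and -1.30 and -1.15 in WT. Genes with and without an intron also both fell: 76 of 84 with an intron and 37 of 48 without were lower at 20 min in Mut3 (medians -1.45 and -1.29), and 74 of 84 and 34 of 48 in WT (medians -1.31 and -1.12).

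The stalk is the flexible arm of the large subunit that calls in elongation factors, with RPP0 as its base and the P1 and P2 proteins as its tips. RPP0 (YLR340W, chromosome XII, 805887 to 806825, build R64) had 6083 and 5076 FPKM at 0 min, 3795 and 3874 at 10 min and 2711 and 2656 at 20 min in Mut1. Mut2 had 5412.5 and 5676, 4019.9 and 4029, and 2765 and 2627 FPKM at these times. Mut3 had 5347 and 5986, 4134 and 4148, and 1937 and 1973 FPKM, and WT 6102 and 6688, 4514 and 5156, and 2207 and 2354 FPKM. In each strain every time in salt stood below the one before it with no overlap. Its log2 change at 20 min was -1.05 ± 0.11 (SE) in Mut1, -1.04 in Mut2, -1.53 in Mut3 and -1.49 in WT (adjusted p = 3.8e-06, 4.53e-06, 5.29e-08 and 8.32e-08 in limma). Already at 10 min it was lower in all 4 strains, by -0.54, -0.46, -0.45 and -0.41. The call at 10 min was lost in Mut3 without library 1 at 0 min (adjusted p = 0.0689 in limma) and in WT without library 1 at 0 min (0.0917) or library 0 at 10 min (0.118).

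At 20 min the tips of the stalk changed in the same direction as RPP0 in every strain. They varied more between libraries, and not all were called without the block. RPP1A was lower at 20 min in Mut1 (-1.15), Mut3 (-1.95) and WT (-1.78), and stood at -0.89 with adjusted p = 0.0684 in Mut2. RPP2B was lower at 20 min in all 4 strains, by -1.23, -1.16, -1.30 and -1.03 in Mut1, Mut2, Mut3 and WT. RPP1B was called lower in Mut2 (-1.46, adjusted p = 0.0297 in limma) and not elsewhere, with -0.79 in Mut1, -1.07 in Mut3 and -1.16 in WT. RPP2A was called in no strain, at -0.85 to -1.35. These calls were lost without some single libraries for RPP1A in Mut1 (library 0 at 0 min and library 1 at 20 min, adjusted p = 0.165 and 0.168), RPP1B in Mut2 (the same libraries of Mut2, 0.269 and 0.208) and RPP2B in all 4 strains (without library 0 at 0 min, 0.179 in Mut1, 0.119 in Mut2, 0.117 in Mut3 and 0.264 in WT). With the replicate block all 5 stalk genes were lower at 20 min in each strain.

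The steepest losses were in a few members of pairs. In WT at 20 min the largest falls were RPL7B at -3.22 ± 0.57 (SE, 9.34-fold lower, adjusted p = 0.00031 in limma), RPL22B at -3.05 ± 0.26 (8.25-fold, 2.05e-07), RPS9A at -2.81 ± 0.28 (7.02-fold, 9.88e-07) and RPL33B at -2.64 ± 0.21 (6.22-fold, 1.32e-07). Fold changes are ratios of FPKM plus 1. In Mut3 the largest were RPL7B (-3.28), RPL22B (-2.98), RPL33B (-2.82) and RPL16A (-2.63). In Mut2 they were RPS14B (-1.95), RPL7B (-1.81), RPS27A (-1.74) and RPL33B (-1.70), and in Mut1 RPL41B (-2.21), RPS14B (-1.80), RPL7B (-1.77) and RPL6B (-1.72). At 20 min RPL7B (YPL198W, chromosome XVI, 173152 to 174702) had 104.0 and 59.9 FPKM in Mut1, 118 and 82.3 in Mut2, 42.5 and 25.2 in Mut3 and 43.3 and 23.4 in WT, against 200.5 to 486 FPKM at 0 min over the 4 strains. All libraries of Mut1 and Mut2 were thus above those of Mut3 and WT at 20 min, and all were below those at 0 min. The snoRNA gene SNR59 lies within the bounds of RPL7B on the same strand. The copies of RPL7 and of RPL41 are 96.7 and 98.7% identical, so the values of RPL7B and RPL41B are uncertain. In Mut1 RPL41B was not called without library 1 at 0 or 20 min (adjusted p = 0.217 and 0.14), and RPL7B and RPL6B not without library 0 at 0 min (0.183 and 0.11) or library 1 at 20 min (0.174 and 0.0899). The RPL7B call in Mut2 was lost without the matching libraries (0.154 and 0.124).

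Rap1, the factor that marks most ribosomal protein promoters, binds a motif with the core ACCCNNACA. This core was searched on both strands in the 600 bases before each start codon of the R64 genome. It was found in 57 of 137 ribosomal protein promoters (41.6%), in 50% of large subunit, 32.1% of small subunit and 20% of stalk genes, against 387 of 6018 protein-coding genes (6.43%). The 4 windows of 30 bases below are examples from copies whose levels moved most or from the partners of such copies. The core is in capitals, 5′ to 3′ on the strand of the gene. RPL41B, RPL6B, RPL33A, RPL36A and RPL36B also have the core and are not shown. RPL43B is shown as the partner of RPL43A, a library-set gene whose move is uncertain.
RPL22B, chrVI:65158-65187, minus strand: ccatgtcaacACCCGTACAtattcagagat
RPL33B, chrXV:779856-779885, minus strand: gcctgtataaACCCATACAatcagcccata
RPL43B, chrX:608006-608035, plus strand: atcctttttaACCCATACAtatcatttaga
RPL7A, chrVII:366228-366257, minus strand: tcatataaacACCCACACAtatctataaat
The cores lie 245, 470, 289 and 251 bases before the start codons. None was found for RPS9A, RPS9B, RPL16A, RPL16B, RPL7B, RPL22A, RPL15A, RPL15B, RPL41A or RPL43A, which says only that these letters are not in the window. Genes with and without the core both fell at 20 min: in Mut3, 49 of 55 with it and 64 of 77 without it were lower (medians -1.45 and -1.36), and in WT 47 of 55 and 61 of 77 (median -1.24 in each).

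RPS9A (YPL081W, chromosome XVI, 404950 to 406044, build R64) encodes Rps9, a small subunit protein near the decoding centre. In Mut1 it had 701 and 555 FPKM at 0 min, 196 and 155 at 10 min and 348 and 291 at 20 min. In Mut2 it had 703.5 and 671 FPKM at 0 min, 257 and 188.5 at 10 min and 418 and 407 at 20 min. In both mutants the 10 min libraries were the lowest and the 20 min libraries stood between them and the 0 min libraries with no overlap.

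In Mut3 RPS9A had 1020.2 and 702 FPKM at 0 min, 176 and 112 at 10 min and 161 and 118 at 20 min. WT had 808 and 627 FPKM at 0 min, 157.5 and 133 at 10 min and 123 and 82 at 20 min. Here the 20 min libraries were as low as, or lower than, the 10 min libraries. The fall at 10 min was -1.83 in Mut1, -1.64 in Mut2, -2.58 in Mut3 and -2.29 in WT, called in each strain (adjusted p = 0.000124, 0.000325, 4.13e-06 and 1.41e-05 in limma). At 20 min it was -0.97 in Mut1, -0.74 in Mut2, -2.61 in Mut3 and -2.81 in WT. The Mut2 call at 20 min (adjusted p = 0.0473) was lost on leaving out any of its 4 libraries, and the Mut1 call (adjusted p = 0.0115) on leaving out library 0 at 0 min (0.099) or library 1 at 20 min (0.0877).

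RPL22B (YFL034C-A, chromosome VI, 64243 to 64932, build R64) encodes Rpl22, a large subunit protein that yeast can live without. The partner copy RPL22A is a library-set gene, and its part in the RPL22B values was not tested. In Mut1 and WT the 20 min libraries belong to another set than those at 0 and 10 min. In Mut1 RPL22B had 801 and 765 FPKM at 0 min, 256 and 218 at 10 min and 302 and 245 at 20 min. In Mut2 it had 768.5 and 818 FPKM at 0 min, 316 and 202 at 10 min and 483 and 335.5 at 20 min. In Mut1 the libraries at 10 and 20 min overlapped, while in Mut2 those at 20 min were higher.

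In Mut3 RPL22B had 969.5 and 779.7 FPKM at 0 min, 192 and 162 at 10 min and 121 and 98.3 at 20 min. WT had 997 and 869 FPKM at 0 min, 231 and 209.7 at 10 min and 143 and 87.7 at 20 min. In these strains each time was below the one before it with no overlap. The fall at 10 min was -1.72 in Mut1, -1.65 in Mut2, -2.30 in Mut3 and -2.08 in WT, and at 20 min -1.52, -0.98, -2.98 and -3.05. Each of these 8 changes was called, that of Mut2 at 20 min not without its library 1 at 20 min (adjusted p = 0.0882 in limma). Between 20 and 10 min of Mut2, RPS9A differed by 0.90 (adjusted p = 0.0846) and RPL22B by 0.67 (adjusted p = 0.172 in limma), and both were called higher with the replicate block (0.000248 and 0.0053).

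**Figure D2:**
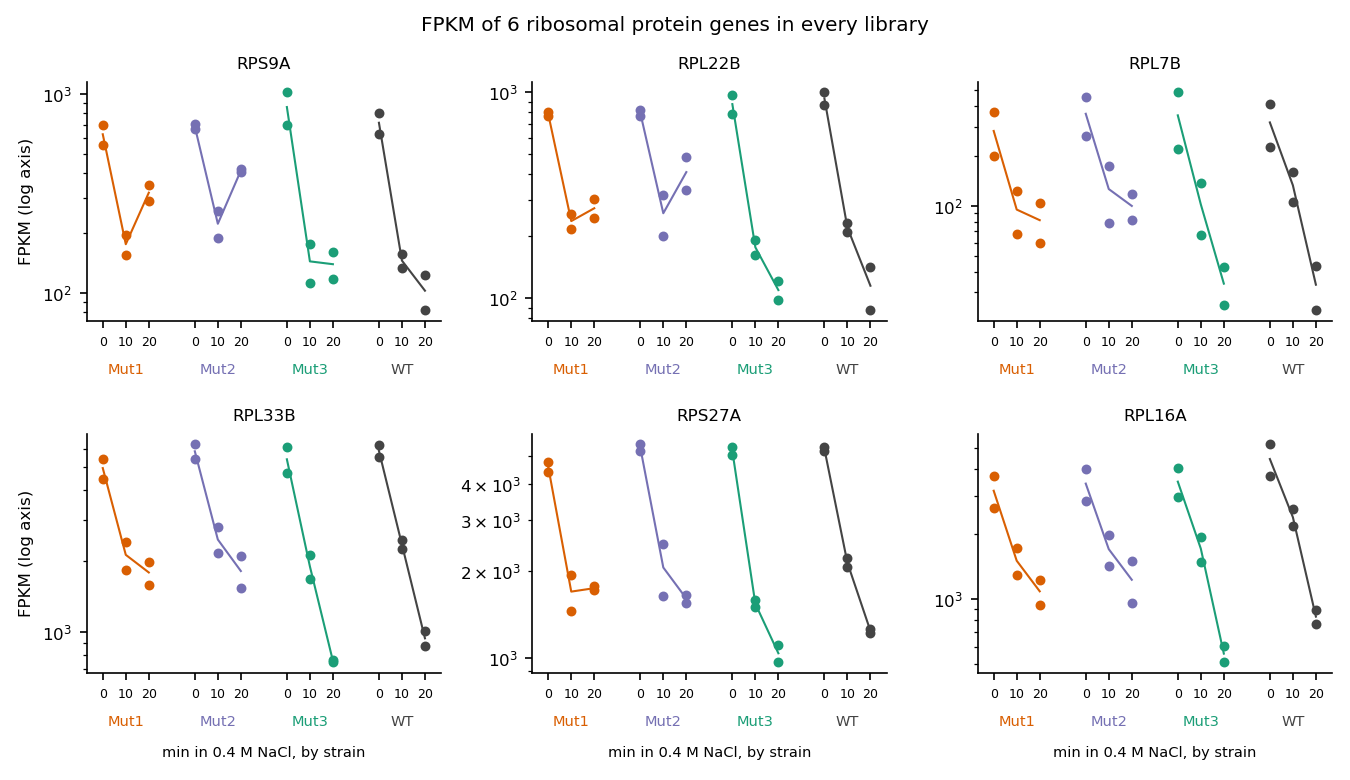
FPKM of RPS9A, RPL22B, RPL7B, RPL33B, RPS27A and RPL16A in every library on log axes, by strain and by minutes in 0.4 M NaCl, with a point per library and lines through the group means. At 20 min RPS9A stood at 291 to 418 FPKM in Mut1 and Mut2, against 82 to 161 FPKM in Mut3 and WT.

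The difference between a mutant's response and that of WT was tested for every gene. The 3 mutants are set against the same WT libraries, so these comparisons are not independent. At 20 min, 2 of 137 genes had a response above that of WT in Mut1 and 2 in Mut2, and 0 below. Of all tested features 0.881% were above and 1.62% below in Mut1, and 1.43% above and 1.7% below in Mut2. The counts of ribosomal protein genes above WT were thus near the shares over all features, with no clear excess. In both mutants the genes above WT were RPS9A and RPL22B. RPS9A differed by 1.84 ± 0.39 (SE, adjusted p = 0.0202) in Mut1 and by 2.08 ± 0.39 (0.00854) in Mut2, and RPL22B by 1.52 ± 0.36 (0.0386) in Mut1 and by 2.07 ± 0.36 (0.00526 in limma) in Mut2.

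In Mut3 at 20 min, 0 genes were called in limma, with or without the block (0.299 and 3.73% of all features in either direction), and 0 had an unadjusted p under 0.05 without it. There RPS9A differed from WT by 0.20 ± 0.39 and RPL22B by 0.06 ± 0.36 (SE). The median difference over the 137 genes was 0.19 in Mut1, 0.08 in Mut2 and -0.16 in Mut3, against -0.00, 0.02 and 0.02 over all tested features. In Mut2 this median was 0.32 between libraries numbered 0 and -0.11 between those numbered 1, so its sign depended on the library. With the columns rescaled by median ratios RPL22B in Mut2 was called (adjusted p = 0.0342 in limma), while RPS9A in Mut2 (0.0529), RPS9A in Mut1 (0.109) and RPL22B in Mut1 (0.157) were not, and none of the 4 was called in a fit of the compared groups alone. Leaving out library 1 of WT at 20 min ended the RPS9A call in Mut2 (adjusted p = 0.0523 in limma), and the adjusted p of RPL22B in Mut2 was at most 0.0319 on leaving out any 1 library of Mut2 or WT. In Mut1 the RPS9A call was lost without library 0 of WT at 0 min (adjusted p = 0.0983), library 1 of WT at 20 min (0.118), library 1 of Mut1 at 0 min (0.101) or library 0 of Mut1 at 20 min (0.0958). The RPL22B call in Mut1 was lost without each library of both strains at 0 and 20 min (0.0595 to 0.21) other than library 0 of WT at 20 min.

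With the replicate block 27 genes had a response above and 1 below that of WT in Mut1, and 26 above and 5 below in Mut2 (6.62 and 12.5% of all features above and 8.85 and 12.8% below). Among those above WT in both, beside RPS9A and RPL22B, the largest were RPL7B at 1.45 in Mut1 and 1.41 in Mut2, RPL33B at 1.17 and 0.94, and RPL16A at 0.87 and 0.91. RPL33B (YOR234C, chromosome XV, 778555 to 779405) had 1994 and 1591 FPKM at 20 min in Mut1, 2099.7 and 1536 in Mut2, 767 and 747.5 in Mut3 and 1013 and 873 in WT. All 4 libraries of Mut1 and Mut2 were above all 4 of Mut3 and WT, the same split of strains as in the a-cell marker sums, which were lower in Mut1 and Mut2. At 0 min the libraries of the 4 strains ranged from 4479 to 6244 FPKM, and those of Mut1 were below those of WT. The means there were 4959.5 FPKM in Mut1 and 5867.7 in WT, and this difference of -0.25 was not called. At 10 min the 4 strains overlapped, at 1686 to 2785 FPKM. The partner copy RPL33A is a library-set gene, and its part in the RPL33B values was not tested. Without the block the difference of the RPL33B response from that of WT at 20 min was not called (adjusted p = 0.0628 in Mut1 and 0.124 in Mut2 in limma).

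RPL16A (YIL133C, chromosome IX, 98527 to 99416) had the same order at 20 min, with 1228 and 940.0 FPKM in Mut1, 1497 and 955 in Mut2, 606 and 509 in Mut3 and 891 and 764 in WT. Here too the difference of the response from that of WT was not called without the block (adjusted p = 0.499 in Mut1 and 0.31 in Mut2). With the block RPL16A was already lower than WT at 0 min in both mutants, by -0.49 in Mut1 (adjusted p = 0.00156 in limma). That difference at 0 min is part of the response difference. With the block RPL15B was below WT in Mut1, at -0.70. In Mut2 the 5 genes below WT were RPS28A at -1.02, RPL36B at -0.91, RPL15B at -0.88, RPL1A at -0.70 and RPS28B at -0.58. RPL1A, whose pair is 99.4% identical, is uncertain, and RPL36B is a library-set gene.

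At 10 min, 0 genes differed in response between Mut1 and WT in limma, where 2.59% of all features were called in either direction. At an unadjusted p under 0.05 there were 5, and with the block 12, all below WT, against 16.4% of all features in either direction. The genes called at 10 min in Mut2 and Mut3, 3 in each, were RPL22A, RPL36B and RPL43A in both, and all belong to the 5 genes that differ between library sets. Without those 5 the count was 0 in each, against 2.42 and 0.189% of all features in either direction, with 4 genes in Mut2 and 0 in Mut3 at an unadjusted p under 0.05. With the block it was 6 in Mut2 and 0 in Mut3, where 15.6 and 1.09% of all features were called.

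**Figure D3:**
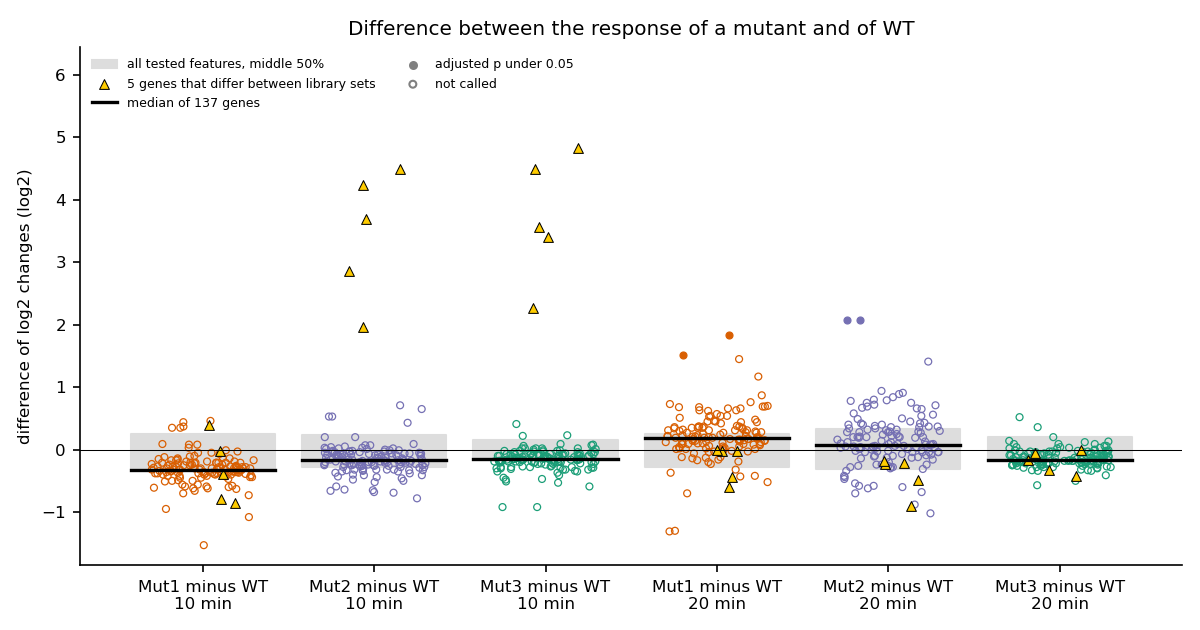
Difference between the log2 change of each mutant and that of WT at 10 and 20 min for the 137 genes, with the same symbols as for the salt response. At 20 min the filled circles are RPS9A and RPL22B, at 1.84 and 1.52 in Mut1 and 2.08 and 2.07 in Mut2, and at 10 min the triangles stand at 1.96 to 4.83 in Mut2 and Mut3.

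Before salt no gene was called between Mut1, Mut2 or Mut3 and WT at 0 min in limma, where 4.62, 4.51 and 1.62% of all tested features were called, and 1 gene in each comparison had an unadjusted p under 0.05. The median difference was -0.12 in Mut1, -0.00 in Mut2 and -0.11 in Mut3. With the block 6, 3 and 2 genes were called, against 18.1, 20.9 and 7.91% of all features. Among them RPL16A was lower in all 3 mutants, by -0.49, -0.38 and -0.34. At 0 min it had 3709 and 2628 FPKM in Mut1, 3998 and 2841 in Mut2, 4022 and 2960.4 in Mut3 and 5191 and 3699 in WT, so each mutant overlapped WT.

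RPL15B went the other way from the family. It is the low copy of the pair for Rpl15, a large subunit protein. RPL15B (YMR121C, chromosome XIII, 509734 to 510348) had 137 and 82.9 FPKM at 0 min, 223 and 144 at 10 min and 214 and 147 at 20 min in Mut1. Mut2 had 129 and 89.2, 268 and 150.5, and 181 and 137 FPKM at these times. Mut3 had 125 and 81.9, 232 and 161, and 316 and 178 FPKM, and WT 100.3 and 65.2, 195 and 111, and 270.5 and 179.5 FPKM. In each strain the libraries in salt were above those at 0 min with no overlap. The change at 20 min was 1.43 ± 0.43 in WT (SE, adjusted p = 0.0137 in limma) and 1.22 in Mut3 (0.0313), and 0.73 in Mut1 and 0.55 in Mut2 did not pass. Leaving out library 1 of WT at 0 min or library 0 at 20 min ended the WT call (0.104 and 0.105), and the matching libraries of Mut3 that of Mut3 (0.187 and 0.237). With the block it was higher at both times in all 4 strains. Its copy RPL15A fell by 1.64 on the log2 scale at 20 min in WT.

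Copies of a pair changed by different amounts in salt. The lower copy of each pair was taken as the one with the lower level in the mutants at 0 min, so WT values were not used in that choice. In WT, of the 55 pairs without a gene set apart, the lower copy changed less upward or more downward than its partner in 38 pairs at 10 min (median difference -0.20) and in 36 at 20 min (median -0.36, range -2.30 to 3.07). In the mutants, whose 0 min libraries chose the copy, the same held at 20 min for 34 pairs in Mut1, 32 in Mut2 and 37 in Mut3.

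RPS9A held 8.01% of the summed FPKM of the RPS9 copies in Mut1 at 0 min, 3.21% at 10 min and 7.78% at 20 min (means of 2 libraries). In Mut2 it held 8.57, 3.62 and 9.28%, in Mut3 10.7, 2.43 and 4.39%, and in WT 7.91, 2.01 and 2.54%. At 20 min the libraries of Mut1 and Mut2 lay at 7.48 to 11.1% and those of Mut3 and WT at 2.40 to 4.56%. RPS9B, the high copy, was lower at 20 min by -0.93 in Mut1, -0.84 in Mut2, -1.24 in Mut3 and -1.10 in WT, with adjusted p = 0.0584 in Mut1 and 0.0886 in Mut2 in limma without the block. Its response differed from that of WT by 0.17 ± 0.52 in Mut1 and by 0.27 ± 0.52 in Mut2 (SE) and was called in neither. The calls of RPS9B in Mut3 and WT were lost without library 0 at 0 min (adjusted p = 0.116 and 0.166) or library 1 at 20 min (0.114 and 0.156).

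RPL7B, whose share is uncertain because its copies are 96.7% identical, held 14.6, 6.91 and 8.52% of the RPL7 pair at 0, 10 and 20 min in Mut1. In WT it held 14.1, 6.79 and 3.16%. RPL15B held 1.67, 4.23 and 5.14% of its pair in Mut1 and 1.13, 4.24 and 8.83% in WT, so its share was higher at each later time in both. The pairs that held most still were RPS6, with 44.9 to 48.4% for RPS6B over the 12 groups, and RPL24, with 36.2 to 40.6% for RPL24B. The copies of RPS6 are 99.2% identical, so reads could not be told apart well between them.

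**Figure D4:**
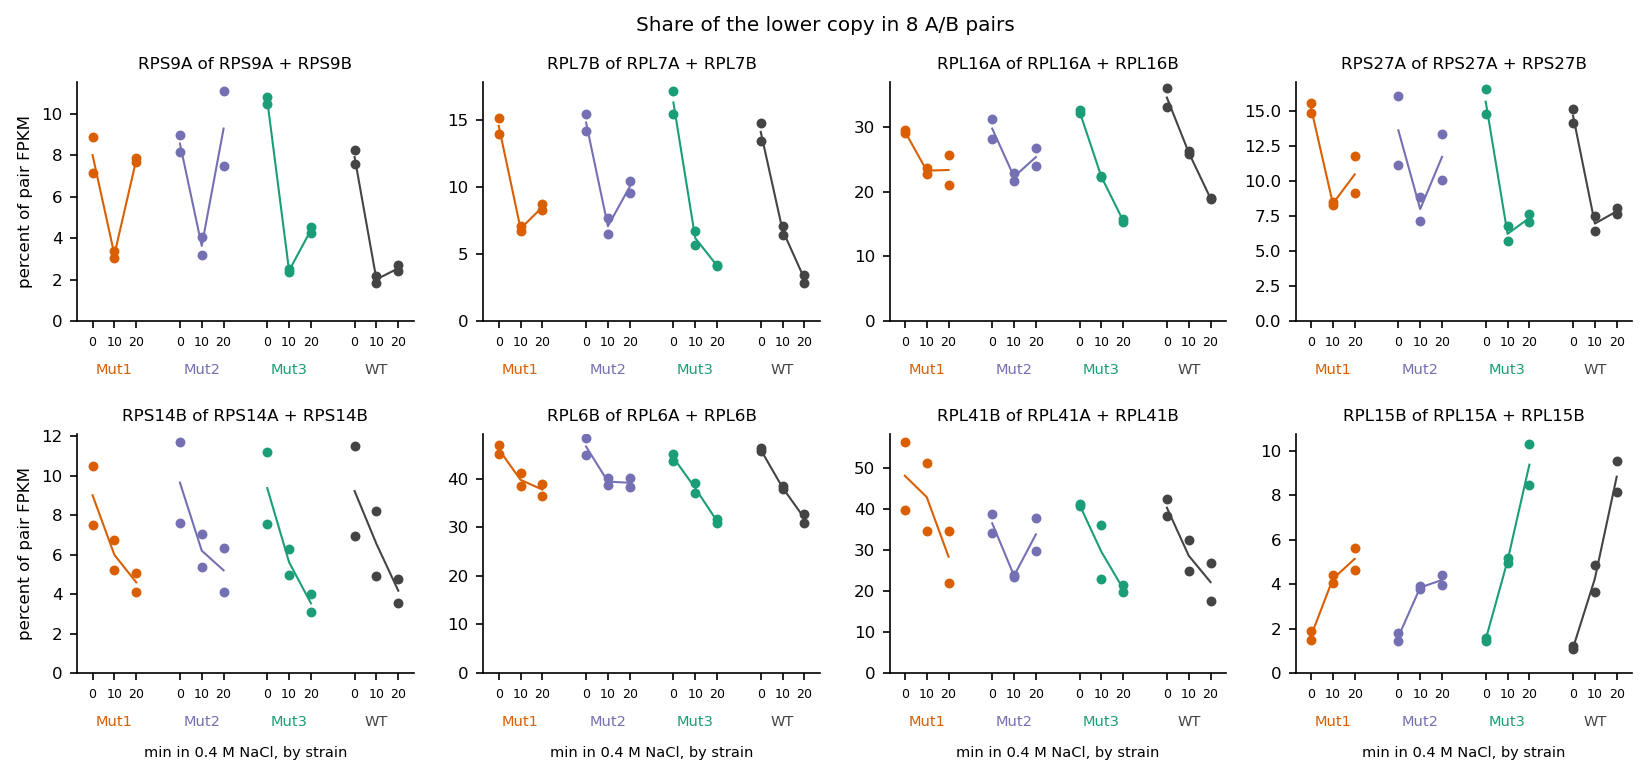
Share of the lower copy in the summed FPKM of its pair, in percent, for RPS9, RPL7, RPL16, RPS27, RPS14, RPL6, RPL41 and RPL15, by strain and by minutes in salt, with a point per library and lines through the group means. RPS9A returned to 7.78 and 9.28% at 20 min in Mut1 and Mut2, while RPL15B climbed in all strains.

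At 10 min 14 genes were lower in all 4 strains, near the share of 11.3% over all tested features, and with the block 64 were, against 19.7%. The 14 genes were RPL16A, RPL18B, RPL22B, RPL3, RPL33B, RPL4A, RPL4B, RPP0, RPS13, RPS14B, RPS27A, RPS4B, RPS7B and RPS9A. The call of RPL16A was lost in each strain without library 0 at 0 min (adjusted p = 0.126 in Mut1, 0.157 in Mut2, 0.126 in Mut3 and 0.226 in WT in limma), and that of RPS14B in WT without library 1 at 0 min (0.0988) or library 0 at 10 min (0.122). RPL3, the single gene for a protein at the peptidyl transferase centre, had 3465 and 3420 FPKM at 10 min in Mut1, against 6001 and 5238 at 0 min. Mut2 had 4562 and 3819.8 FPKM, against 5545 and 6735. Mut3 had 2938 and 2835 FPKM, against 5792 and 5662, and WT had 3029.7 and 3154 FPKM, against 6249 and 6813. The groups did not overlap in any strain, and the change was -0.70 ± 0.12 (SE) in Mut1 and -1.08 ± 0.12 in WT (adjusted p = 0.000437 and 8.62e-06 in limma).

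RPS27A encodes a zinc-binding small subunit protein and is the lower copy of its pair. It had 1931 and 1456 FPKM at 10 min in Mut1, against 4783 and 4399 at 0 min. Mut2 had 2470.0 and 1636 FPKM, against 5223 and 5489. Mut3 had 1580.2 and 1492 FPKM, against 5368 and 5054, and WT had 2055 and 2211 FPKM, against 5210.3 and 5384. No library at 10 min reached the level of any at 0 min. The fall of -1.45 ± 0.17 (SE) in Mut1 and -1.31 ± 0.17 in WT was called in both (adjusted p = 1.17e-05 and 2.89e-05 in limma), while its high copy RPS27B changed by -0.48 in Mut1 and -0.11 in WT and was called in neither without the block.

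RPL28, a single gene whose protein is the site of cycloheximide resistance mutations, did not join the decline at 20 min. Its listed level is low for a single gene, so its values are uncertain. At 0 min in WT it had a mean of 271.1 FPKM, against 6530.9 for RPL3, 12070.8 for RPL32 and 30321.1 for RPL30. Only the library-set gene RPL39 was lower among single genes there, at 151.8 FPKM. The reason was not tested. RPL28 had 192 and 263 FPKM at 20 min in Mut1, against 191 and 345 at 0 min. Mut2 had 243 and 272 FPKM, against 341 and 358. Mut3 had 291.5 and 293 FPKM, against 256 and 224, and WT had 277 and 364 FPKM, against 235 and 308. The groups overlapped in Mut1 and WT, while at 20 min both libraries were lower in Mut2 and higher in Mut3. None of these passed the test with or without the block, and the change at 20 min was -0.19 ± 0.26 (SE) in Mut1, -0.44 in Mut2, 0.29 in Mut3 and 0.24 in WT. RPL28 was lower at 10 min in Mut1 (-0.80, adjusted p = 0.0269 in limma), with 147 and 146 FPKM. RPL29, the highest gene of all, had 20566 and 16207 FPKM at 20 min in Mut2, against 37201 and 36063 at 0 min, and was called 2.01-fold lower there (adjusted p = 0.000726 in limma). Its log2 change at 20 min was -0.45 in Mut1, -0.38 in Mut3 and -0.41 in WT, called with the block but not without it.

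RPL22A, RPL43A, RPL36B, RPL39 and RPL33A are read as uncertain. Their levels split the libraries into a set made of all 0 min groups with WT and Mut1 at 10 min, and a set made of Mut2 and Mut3 at 10 min with all 20 min groups. In the first set RPL22A stood at 4.44 to 17.6 FPKM and in the second at 80.1 to 238. RPL43A stood at 15.8 to 63.7 FPKM in the first set and at 494 to 1517 in the second, RPL36B at 33.2 to 101 and 273 to 806, and RPL39 at 65.3 to 375 and 1008 to 3559. Only RPL33A came close to meeting, at 113 to 400 FPKM in the first set and 403 to 824 in the second.

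At 10 min, where both sets hold salt-treated libraries, the second set was above the first by 4.56 for RPL22A, 4.87 for RPL43A, 3.58 for RPL36B, 4.15 for RPL39 and 2.16 for RPL33A on the log2 scale. The other 132 genes lay between -0.76 and 0.83 there, with a median of -0.01, and 0 of them had sets that did not overlap. Over all tested features 1.31% did not overlap and 0.126% also differed at least 4-fold. Strain and set cannot be told apart at 10 min, nor time and set at 20 min. Within a set none of the 5 was called in limma without the block: between 10 and 0 min the changes were -0.14 to -0.69 in Mut1 and -0.55 to 0.35 in WT, and between 20 and 10 min -0.55 to -0.94 in Mut2 and -0.69 to -0.91 in Mut3. All 5 have an intron, as do most members (89 of all 137).

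**Figure D5:**
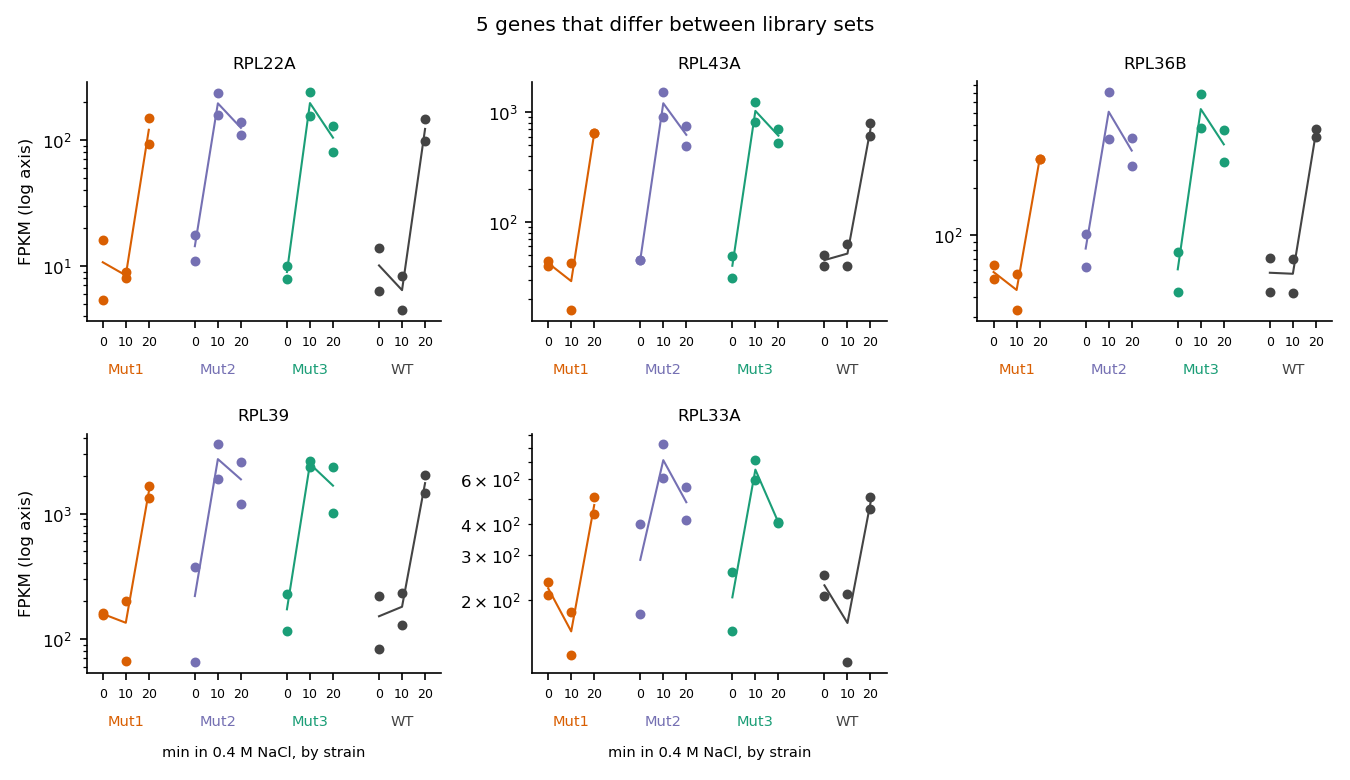
FPKM of the 5 genes that differ between library sets, in every library on log axes, by strain and by minutes in 0.4 M NaCl, with a point per library and lines through the group means. The jump falls between 10 and 20 min in Mut1 and WT and between 0 and 10 min in Mut2 and Mut3, for RPL43A to at least 494 FPKM.

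Other parts of the ribosome pathway gave a frame for the family. Beside their counts, 15.5, 15.4, 16.7 and 17.6% of all tested features were lower at 10 min in Mut1, Mut2, Mut3 and WT. At 20 min 19.5, 18.2, 22.4 and 22.5% of all tested features were lower in these strains, and 24.5% were higher in WT. Of 88 ribosome biogenesis genes, 86 were lower at 10 min in Mut1, 84 in Mut2, 82 in Mut3 and 80 in WT, and all 88 were lower at 20 min in each strain (medians -2.73, -2.32, -3.34 and -3.01). The 11 dedicated chaperones of ribosomal proteins were all lower at 20 min in each strain, with medians of -1.92, -1.81, -2.22 and -2.26. SYO1, which carries Rpl5 and Rpl11 into the nucleus, had a mean of 5.84 FPKM at 10 min in WT, against 64.9 at 0 min (-3.27 ± 0.28, SE, adjusted p = 4.38e-07 in limma). PUF6, with a role in large subunit assembly, changed by -2.61, and TSR2, the chaperone of Rps26, by -1.77. RRB1, the chaperone of Rpl3, was lower by 2.98 at 20 min.

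Of 33 translation factors, 22 were lower at 20 min in Mut1, 20 in Mut2, 24 in Mut3 and 24 in WT. Their medians, -1.02, -1.02, -1.36 and -1.20, were close to those of the ribosomal protein genes. In WT at 20 min NIP1, a subunit of initiation factor eIF3, changed by -2.33, YEF3, an elongation factor of fungi, by -2.31 and SUI2, the alpha subunit of eIF2, by -1.89. The 69 mitochondrial ribosomal protein genes stayed near 0, with medians of 0.02, 0.06, -0.10 and -0.19 at 20 min, 11 lower and 2 higher in WT and 0 lower in Mut1 and Mut2. Among them MRP2 changed by -1.26 and MRPL25 by -1.19 in WT at 20 min, and RSM10 by 0.87 at 10 min.

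Of the 13 regulators of ribosomal protein genes, 2 were higher and 2 lower at 20 min in WT. Over all tested features 24.5% were higher and 22.5% lower there, so these counts show no excess in either direction. TOD6, a repressor of ribosome biogenesis genes, fell to 3.33 FPKM at 20 min in WT, against 64.6 at 0 min (-3.88 ± 0.25, SE, adjusted p = 1.18e-08 in limma). IFH1, the coactivator of ribosomal protein genes, fell to 9.08 FPKM, against 20.8 (-1.11 ± 0.12, adjusted p = 3.88e-06 in limma). In WT STB3, a repressor that binds the promoters of ribosome biogenesis genes, rose by 1.31 at 20 min, and SFP1, an activator of the family, rose by 1.21 at 10 min.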

How the data were processed

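Per the submitters' processing notes, the authors used TopHat2 and Cuffdiff with genome build sacCer3 to make the deposited FPKM values, 1 column per library. Tool versions, the annotation and the strand setting: not given in the sources used here. Depth is unknown. RNA was purified with the miRNeasy kit and made into stranded mRNA libraries, per the labels' protocols. Columns were mapped to strain and time by name, with strains 1 to 3 of the titles called Mut1 to Mut3, and the ending 0 or 1 of a column is not matched to a labelled replicate.

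Members were matched through the R64 reference, which also gave introns, coordinates and promoters. The 6359 features averaging at least 1 FPKM were tested. Their log2(FPKM + 1) values entered 1 limma 3.58.1 model under R 4.3.3 with a mean for each of the 12 groups, a variance trend and 12 residual degrees of freedom. Tests are two-sided, adjusted by Benjamini and Hochberg over all tested features, and called under 0.05. The fit was tested on simulated data. Errors after a log2 change are SE. Levels and pair shares have no test.

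Same-numbered libraries deviated from their group means together (correlations across genes of 0.23 to 0.601 in all 66 pairs of groups), so the numbers in the column names were taken to pair the libraries. The main fit has no block. Blocked values are given for the counts and for some of the genes whose calls they change, not for all of them.

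Members, lists and comparisons were chosen with earlier results of these data known. Named genes are the 5 library-set genes and their copies, the stalk genes, up to 4 called members in each direction with the largest change per comparison, the 8 pairs with the widest and 2 with the narrowest range, the 3 highest and 3 lowest members, and up to 3 genes per list. RPL3, RPL28, RPS7B, RPL1A, RPS28B and the other genes lower at 10 min in all strains were picked for naming once their values were known. The replicate block, a fit on the compared groups alone, leaving out each library, median-ratio rescaling, a pseudocount of 0.1 FPKM and testing every feature were the alternatives tried.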

Additional observations from a re-analysis of the deposited data

Results flagged for a closer look

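The response of 5 genes differed from that of WT by a test of the difference itself (limma, adjusted p under 0.05 over all tested features), in 10 comparisons. At 20 min RPS9A responded above WT by 1.84 in Mut1 and by 2.08 in Mut2 on the log2 scale, and RPL22B by 1.52 in Mut1 and by 2.07 in Mut2. Without the block, the number of ribosomal protein genes above WT at 20 min was near the share over all tested features in both mutants. RPL22B in Mut2 was called with rescaled columns and on leaving out any 1 library of Mut2 or WT at 0 or 20 min. The other 3 were not called with rescaled columns (adjusted p = 0.0529 to 0.157) or without some single libraries (0.0523 to 0.21), and none of the 4 in a fit of the compared groups alone. At 10 min RPL22A responded above WT by 4.23 in Mut2 and by 4.83 in Mut3, RPL36B by 2.86 and 3.40, and RPL43A by 4.50 and 4.49. The RPL36B call was lost with rescaled columns (adjusted p = 0.0721 in Mut2 and 0.229 in Mut3 in limma). It was also lost without some single libraries in both mutants. The 10 min values compare libraries of different sets, and strain and set cannot be told apart there. RPL22A, RPL36B and RPL43A were set apart because their levels differ between these sets. The test at 10 min is therefore not independent of that choice, and no difference between strains is drawn from it. Both mutants of each pair share the WT libraries. In Mut2 at 20 min, library 0 had RNA genes summing to 2862.5 FPKM, against 196.3 to 534.9 in the other libraries, and its part in the Mut2 values was not tested beyond leaving it out. Groups of 2 libraries were too small to look for single libraries that stand apart.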

How the results depend on the processing

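No count changed by more than 1.5 times with a pseudocount of 0.1 FPKM or without the filter, and no named gene changed sign in a comparison that named it. In other comparisons some uncalled values near 0 did, such as RPL22A and RPL43A in the Mut1 response difference at 20 min, at 0.01 with rescaling and -0.03 without. Of the results for named genes, 93 were rated the same and 92 weaker in a fit of the compared groups alone. With rescaling 147 were the same and 38 weaker, and on leaving out 1 library 619 and 161. All 185 were the same with the block. Median-ratio rescaling moved the count called to 21 in Mut1, 21 in Mut2 and 18 in Mut3 at 10 min, to 9 for Mut2 at 20 against 10 min, and for the response differences at 20 min to 0 in Mut1 and 1 in Mut2. It moved the median change of the 137 genes by at most 0.11, to -1.48 in Mut3 at 20 min. With the library number as a replicate block the counts were 123, 111, 100 and 68 in Mut1, Mut2, Mut3 and WT at 10 min, 126 and 128 for 20 against 10 min in Mut2 and Mut3, 6, 3 and 2 for the mutants against WT at 0 min, 12, 11 and 5 for the response differences at 10 min and 28 and 31 for those of Mut1 and Mut2 at 20 min. With block and rescaling together, added after the data were seen, they were 128, 120, 104 and 75, then 129 and 127, then 8, 3 and 1, then 19, 15 and 5, and 31 and 31. The block changed no other count by over 1.5 times. A fit on the compared groups alone, with fewer libraries to estimate the spread, gave 5, 3, 13 and 8 at 10 min in Mut1, Mut2, Mut3 and WT, 43 and 21 at 20 min in Mut1 and Mut2, 0 and 0 for 20 against 10 min, and 0 for the response differences of Mut2 and Mut3 at 10 min and of Mut1 and Mut2 at 20 min. Without the 5 library-set genes, also added later, the response differences at 10 min of Mut2 and Mut3 gave 0. Leaving out 1 library gave 15 to 35, 16 to 44, 15 to 26 and 10 to 12 at 10 min in Mut1, Mut2, Mut3 and WT, 58 to 95, 62 to 110, 90 to 120 and 78 to 112 at 20 min, 0 to 37 and 33 to 55 for 20 against 10 min, 0 for the mutants against WT at 0 min and for Mut1 at 10 min and Mut3 at 20 min against the WT response, 2 to 5 and 2 to 3 for Mut2 and Mut3 at 10 min, and 0 to 2 and 1 to 2 for Mut1 and Mut2 at 20 min. The causes were not tested. Depth is not known, so the limit it sets on low genes such as RPL22A cannot be given.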
